A study of Homo sapiens with 6 samples.

Results

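Antisense RNAs are transcribed from the strand opposite a protein-coding gene, and long intergenic noncoding RNAs (lincRNAs, named LINC) from the stretches between such genes. Both kinds are usually present at low levels and differ strongly between tissues, and an antisense RNA often starts near the start of the gene it is named after. Some raise or lower the output of a neighbouring gene, others act elsewhere in the cell, and for many no role is known. The question put here was which of them differed between methotrexate-resistant and parental Caco2 cells, and whether the gene on the other strand differed with them.

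Caco2 is a human colon adenocarcinoma cell line. Parental cells, sensitive to methotrexate (MTX), were grown in Ham's F12 medium with 7% fetal bovine serum. Resistant cells had been selected stepwise and tolerated 10 µM MTX, an inhibitor of folate metabolism. They were kept in medium without glycine, hypoxanthine and thymidine and with dialyzed serum, so drug selection and medium cannot be told apart. RNA of 3 parental and 3 resistant samples was hybridised to 6 Affymetrix HG U133 Plus 2.0 arrays. Whether a group's 3 samples were grown as separate cultures is not stated. The p-values therefore reflect the spread among these samples alone, possibly a technical one.

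The genes were chosen by symbol, as antisense (a name ending in -AS and a number) or lincRNA (LINC and a number, without LINC00261), and by level. The mean of the 6 arrays, each divided by its own median signal, had to be at least 1. Of 1619 genes with such a symbol, 344 met this level, 222 antisense and 122 LINC genes. Over the whole array 11849 of 19775 genes did. Because the level chose the genes, levels are given only as a description. Just inside the threshold were LINC00424 at a mean of 1.0054 and LINC01700 at 1.0126, and just outside were LINC02145 at 0.9985 and PTPRN2-AS1 at 0.9991. The group means of 278 genes reached 1 in both groups, those of 42 only in parental cells and those of 24 only in resistant cells. A gene was read from its brightest probe set. For 273 of the 344 genes this probe set read 1 transcript, for 52 it read several transcripts and for 19 its name marked probes shared with other genes, so these 19 values are uncertain.

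Array medians lay between 10.6 and 12.8 signal units. Of 7 epithelial markers on the array 6 had a mean of at least 1, with CDX2 the exception, and their summed level was 1450 to 1860 array medians in parental and 2200 to 2280 in resistant cells. Of 4 leukocyte markers 2 had a mean of at least 1, with sums of 11.0 to 22.4 and 9.24 to 12.1. Of 5 fibroblast markers 2 did, with sums of 4.63 to 5.57 and 7.05 to 7.87. No marker was at 0, and the part of these markers in the results was not tested. Over the 344 genes parental array 3 correlated with the other parental arrays at 0.8 and 0.808, against 0.869 between those and 0.818 to 0.825 among resistant arrays (Pearson's r of log2 signals). Parental array 3 thus stood apart within its group, and counts are given with and without it.

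The promoters of 4 pairs are shown because the results below turn on these loci and RefSeq lists nearby starts for both strands there. The GATA2 and PAN3 pairs fell on both strands, the ARHGAP5 pair moved in opposite directions, and at ZBED5 only the antisense RNA was called. Each window holds 300 bases around a RefSeq transcript start on GRCh38.p14, most of them before the start, and runs 5′ to 3′ on its own strand. Capitals mark the TATA box (searched as TATAAA), the CCAAT box (searched as these letters) and the GC box (searched as GGGCGG), each on either strand. At GATA2 the windows were chr3:128488953-128489252 (plus strand) for the antisense RNA and chr3:128488481-128488780 (minus strand) for the sense gene, with starts 673 bases apart. GATA2 has 2 listed starts, and the one nearer the antisense start is shown.
GATA2-AS1: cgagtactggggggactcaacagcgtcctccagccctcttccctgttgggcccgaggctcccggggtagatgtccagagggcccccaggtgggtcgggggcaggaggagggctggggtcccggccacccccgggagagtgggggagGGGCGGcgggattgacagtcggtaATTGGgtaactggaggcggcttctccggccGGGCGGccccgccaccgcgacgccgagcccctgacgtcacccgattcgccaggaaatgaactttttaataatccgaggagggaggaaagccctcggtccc
GATA2: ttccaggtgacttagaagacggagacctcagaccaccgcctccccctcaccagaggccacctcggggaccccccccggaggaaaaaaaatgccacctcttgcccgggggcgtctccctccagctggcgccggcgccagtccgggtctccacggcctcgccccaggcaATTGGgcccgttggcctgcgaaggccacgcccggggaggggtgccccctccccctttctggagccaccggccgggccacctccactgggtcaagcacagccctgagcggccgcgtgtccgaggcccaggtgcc
At PAN3 they were chr13:28139125-28139424 (minus strand) and chr13:28138295-28138594 (plus strand), with starts 629 bases apart.
PAN3-AS1: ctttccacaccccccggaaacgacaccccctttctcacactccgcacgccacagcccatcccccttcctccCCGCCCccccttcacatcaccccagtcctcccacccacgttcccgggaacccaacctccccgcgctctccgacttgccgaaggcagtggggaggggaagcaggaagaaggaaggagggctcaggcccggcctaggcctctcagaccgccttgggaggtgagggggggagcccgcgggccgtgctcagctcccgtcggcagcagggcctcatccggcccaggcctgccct
PAN3: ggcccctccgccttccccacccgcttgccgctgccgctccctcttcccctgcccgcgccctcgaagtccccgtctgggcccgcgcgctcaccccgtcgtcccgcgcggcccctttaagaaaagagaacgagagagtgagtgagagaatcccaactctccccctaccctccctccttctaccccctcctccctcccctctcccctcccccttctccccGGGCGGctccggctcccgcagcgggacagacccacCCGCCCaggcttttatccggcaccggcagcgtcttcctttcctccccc
At ARHGAP5 they were chr14:32076650-32076949 (minus strand) and chr14:32077054-32077353 (plus strand), with starts 605 bases apart.
ARHGAP5-AS1: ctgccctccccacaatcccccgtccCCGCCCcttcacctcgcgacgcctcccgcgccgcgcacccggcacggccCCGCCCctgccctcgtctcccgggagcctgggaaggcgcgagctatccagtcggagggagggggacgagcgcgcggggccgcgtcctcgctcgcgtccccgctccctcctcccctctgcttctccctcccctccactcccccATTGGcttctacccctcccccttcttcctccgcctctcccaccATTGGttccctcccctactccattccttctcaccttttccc
ARHGAP5: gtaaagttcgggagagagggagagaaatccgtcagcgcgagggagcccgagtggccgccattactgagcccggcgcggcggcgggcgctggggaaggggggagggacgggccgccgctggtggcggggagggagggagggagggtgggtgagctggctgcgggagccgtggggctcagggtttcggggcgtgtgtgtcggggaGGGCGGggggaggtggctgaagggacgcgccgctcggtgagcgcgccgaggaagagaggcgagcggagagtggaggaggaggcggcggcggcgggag
At ZBED5 the starts were 164 bases apart and the windows shared 263 bases, so that of the antisense RNA alone, chr11:10857967-10858266 (plus strand), is shown. In it 1 GC box on the other strand overlaps a CCAAT box.
ZBED5-AS1: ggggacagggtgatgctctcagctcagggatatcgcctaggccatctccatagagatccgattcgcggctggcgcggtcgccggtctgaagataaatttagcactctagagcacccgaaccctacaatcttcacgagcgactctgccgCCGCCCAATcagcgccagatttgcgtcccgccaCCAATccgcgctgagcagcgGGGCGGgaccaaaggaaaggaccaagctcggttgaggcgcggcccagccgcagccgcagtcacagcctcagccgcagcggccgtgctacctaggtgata

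None of these 7 windows held a TATA box, and 62.7% to 74.3% of their bases were G or C. The 269 antisense and LINC genes with a listed transcript start had 329 windows. Of these, 8.21% held a TATA box, 34.7% a CCAAT box and 56.8% a GC box. The shares of all 35116 windows were 11.5%, 34.6% and 45.0%. Antisense and LINC windows differed in these shares. The TATA box was in 4.95% of 222 antisense windows and 15% of 107 LINC windows, and the GC box in 60.8% and 48.6%. Median G and C content was 65.3% in antisense windows, 58.3% in LINC windows and 58.7% in all windows. The 25 windows of 17 called RNAs had a median of 56.7%. Of these windows 44.0% held a GC box and 56.0% a CCAAT box, and their TATA share lay between those of antisense and LINC windows. The 7 windows shown were all above that median and thus do not stand for the called RNAs. A match is a description of the letters and not a binding site.

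Few of the 344 RNAs were called different between resistant and parental cells, which does not show that the others were unchanged. At an adjusted p below 0.05 in limma (Benjamini-Hochberg over all 26563 probe sets tested), 9 were higher (2.62%) and 14 lower (4.07%) in resistant cells. Over all 11849 genes tested the shares were 7.37% higher and 5.05% lower. With a change of at least 2-fold, 4 were higher (1.16%) and 11 lower (3.2%), against 3.37% and 2.17% of all genes. Of these RNAs, LINC00348, LINC00092, LOXL1-AS1, RBPMS-AS1, GATA2-AS1 and PAN3-AS1 had a group mean at the level threshold only in parental cells. LINC00960, MAP3K20-AS1 and TENM3-AS1 had one only in resistant cells. Their place among the 344 thus rested on the group where they were high. The 3 arrays of one group lay apart from the 3 of the other for 84 RNAs (24.4%), against 35.5% of all genes. The median log2 change, resistant over parental, was -0.05 for the 344 RNAs and 0.02 for all genes. In bulk RNA, fewer cells with a transcript and less of it per cell cannot be told apart. Antisense RNAs gave 6 higher and 8 lower of 222, and LINC genes 3 higher and 6 lower of 122.

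The noncoding RNAs had a median level of 1.83 array medians against 10.3 for all genes, and called genes were fewer at low levels in both sets. Among genes with a mean below 3, 2.06% of 243 noncoding RNAs were higher and 2.47% lower, against 4.32% and 2.51% of 2592 genes. At 3 or more, 3.96% of 101 were higher and 7.92% lower, against 8.22% and 5.76% of 9257 genes. Leaving out parental array 3 gave 13 higher (3.78%) and 33 lower (9.59%), against 16.9% and 15.3% of all genes. All 23 RNAs called with 6 arrays were among these 46. Leaving out resistant array 1 left 1 higher and 9 lower, and leaving out parental array 1 left 5 and 6. The counts were 5 and 10 without parental array 2, 3 and 10 without resistant array 2 and 3 and 11 without resistant array 3. In the methods' t-test (unpaired, equal variances, Benjamini-Hochberg) 4 of the 23 kept their call.

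**Figure D1:**
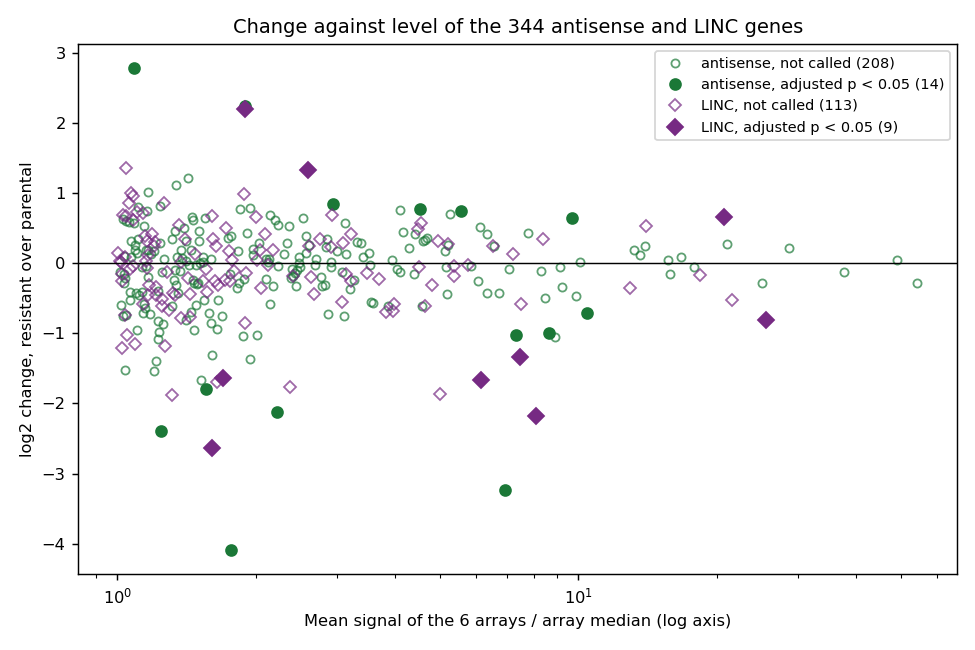
Log2 change of the 344 antisense (green circles) and LINC (purple diamonds) genes, resistant over parental, against their mean level in array medians on a log axis. Filled symbols are the 14 antisense and 9 LINC genes with an adjusted p below 0.05. The uncalled genes spread more widely near a level of 1, and the lowest point is LOXL1-AS1 at -4.09.

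LINC genes that fell numbered 6, among them LINC00460, which has been described in several tumour types. Its signals were 8.26, 9.8 and 10 array medians on the parental arrays and 2.59, 2.9 and 3.42 on the resistant arrays. The groups did not overlap, and the fall was 1.66 ± 0.18 (SE, n = 3 per group) on the log2 scale, or 3.16-fold, with an adjusted p of 0.000643. This call held under every alternative tried that tested the gene, but a second probe set of the gene changed by only -0.36. LINC00973 gave 18.9, 15.2 and 6.38 on parental and 2.37, 2.96 and 2.79 on resistant arrays. Parental array 3 was the lowest of its group and still above all resistant arrays. LINC00973 fell by 2.18 ± 0.35 on the log2 scale (4.54-fold, adjusted p = 0.00473).

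LINC01234, another lincRNA studied in tumours, had the same shape, with parental signals of 15.5, 12.7 and 4.82 and resistant signals of 3.56, 3.68 and 4.49. Parental array 3 lay close to the resistant arrays. LINC01234 fell by 1.34 ± 0.37 on the log2 scale (adjusted p = 0.0481). Leaving out any one array other than parental 3 ended this call (adjusted p = 0.111 to 0.156). The fit on the mean of all probe sets of each gene ended it too. LINC00348 gave 2.26, 2.19 and 3.72 on parental and 0.685, 0.585 and 0.191 on resistant arrays, all of them below the array median. Its fall was 2.64 ± 0.55 on the log2 scale (adjusted p = 0.017, and 0.0575 without parental array 1). LINC00092 read 2.65, 2.6 and 2.42 in parental and 0.883, 0.906 and 0.687 in resistant cells, a narrow spread in both groups. It fell by 1.64 ± 0.31 on the log2 scale (adjusted p = 0.0104, and 0.05 without parental array 1). LINC00623, whose probe set has probes in common with other genes, fell by 0.81 ± 0.15 on the log2 scale from a mean of 32.7 to 18.5 (adjusted p = 0.00979). That call ended without resistant array 1 or 2 (adjusted p = 0.0573 to 0.063).

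LINC genes that rose numbered 3. LINC00960 read 0.64, 0.477 and 0.991 on parental arrays, all below the array median, and 3.61, 2.73 and 2.91 on resistant arrays. The rise was 2.19 ± 0.36 on the log2 scale, or 4.56-fold (adjusted p = 0.0059, and 0.0517 without resistant array 1). LINC02535 read 1.4, 1.37 and 1.65 on parental and 4.31, 3.68 and 3.17 on resistant arrays. The resistant arrays were all higher, by 1.33 ± 0.24 on the log2 scale (2.52-fold, adjusted p = 0.00815, and 0.0595 without resistant array 1). LINC00621, whose probe set also has such probes, rose from a mean of 16.1 to 25.3, by 0.66 ± 0.15 on the log2 scale (adjusted p = 0.0212). Leaving out parental array 1 or any resistant array ended that call (adjusted p = 0.0572 to 0.107).

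**Figure D2:**
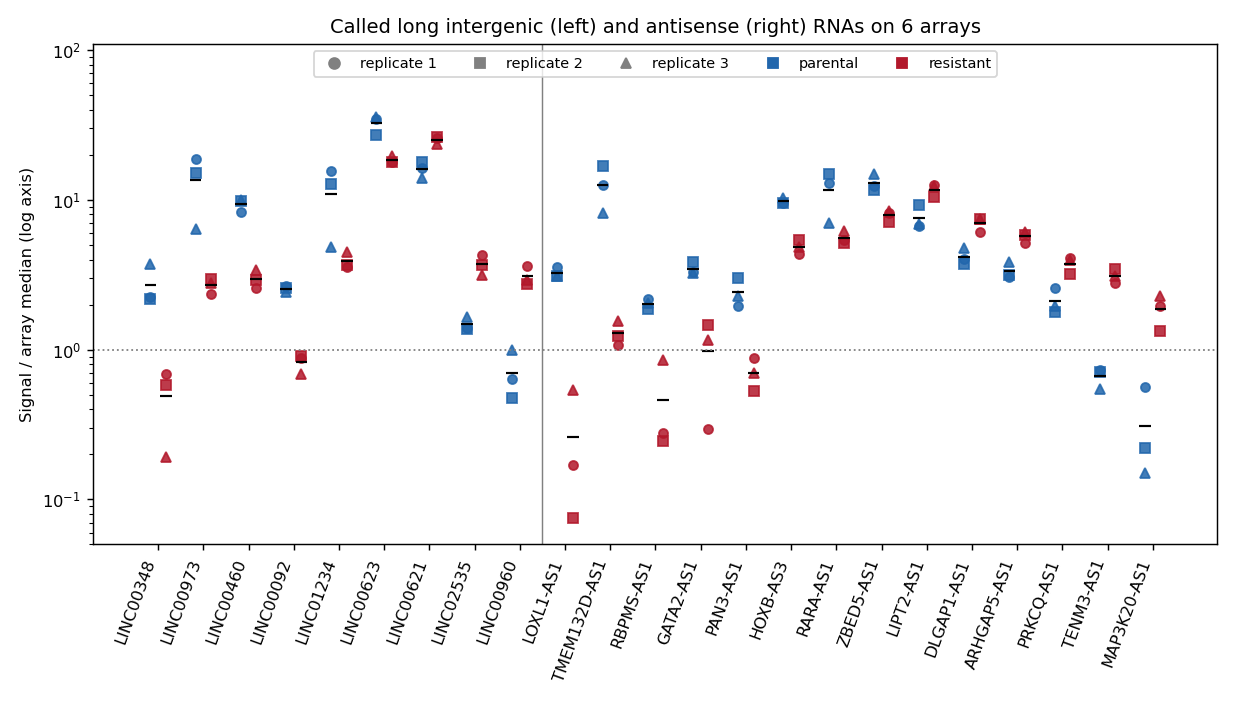
Signal of the 9 LINC (left) and 14 antisense (right) genes with an adjusted p below 0.05 in array medians, with 1 symbol per array and a log axis. Blue symbols are parental and red symbols resistant arrays, the symbol shape gives the replicate, black bars are arithmetic means and the dotted line is the array median. The groups do not overlap for any of the 23 genes, and for LINC00973, LINC01234 and RARA-AS1 parental array 3 lies nearer the resistant mean than the mean of the other parental arrays (log2 scale).

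Protein-coding genes next to the called lincRNAs were read where the array measured them. No limit was set on the distance, so a gene named as beside a lincRNA is the next one in order and may lie far away. RefSeq order gave 19 neighbours of the 9 lincRNAs, of which 8 were tested and 4 called (1 higher and 3 lower, where 7.37% and 5.05% of all genes tested were). These are too few to read a share from. For 3 the direction was that of the lincRNA. EFNB2, an ephrin ligand of Eph receptors, lies beside LINC00460 and gave 77.8, 121 and 62.4 in parental and 26.5, 29.3 and 31.9 in resistant cells. It fell by 1.52 ± 0.22 on the log2 scale (adjusted p = 0.00262). DCBLD2, a transmembrane receptor-like protein beside LINC00973, gave 104, 161 and 96.3 against 54.4, 56.9 and 56.4. It fell by 1.07 ± 0.18 (log2, adjusted p = 0.00599). FGF9, a fibroblast growth factor beside LINC00621, rose by 1.24 ± 0.28 on the log2 scale, from a mean of 1.97 to 4.48 (adjusted p = 0.0216, and 0.0583 to 0.1 without any one array other than parental 3). The methods' t-test ended the calls of EFNB2 (adjusted p = 0.106), DCBLD2 (0.122) and FGF9 (0.149).

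The opposite held for NT5E (CD73), the ecto-nucleotidase that makes adenosine from extracellular AMP, which lies beside LINC02535. NT5E gave 45.2, 41.6 and 42.6 in parental and 14.4, 14.9 and 15.6 in resistant cells. It fell by 1.53 ± 0.13 on the log2 scale (adjusted p = 0.000121) while LINC02535 rose. The other 4 tested neighbours were not called. ZNF717, beside LINC00960, had a log2 change of -0.31 ± 0.26, and RBM19, beside LINC01234, one of -0.11 ± 0.18. The Hedgehog receptor gene PTCH1, beside LINC00092, had a log2 change of 0.24 ± 0.16, and ERCC6L2, which overlaps LINC00092, one of -0.16 ± 0.17.

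Chromosome 13 was looked at after the calls were seen. On this chromosome, which holds LINC00348, LINC00460, LINC00621 and PAN3-AS1, 1 of 14 noncoding RNAs was higher and 3 lower. There 36.4% of the 209 genes tested were lower and 4.31% higher, against 5.05% and 7.37% of all genes tested. The other 10 RNAs there had log2 changes of -0.81 (SMIM2-AS1) to 0.34 (TPT1-AS1). The part of a change of the whole chromosome in the values of EFNB2, PAN3 and these RNAs was not tested.

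Each antisense RNA was then set beside the gene named in its symbol. For 166 of 222 that sense gene was itself tested, for 37 it lay below the level threshold and for 19 no probe set carried its symbol alone. Of the 166 sense genes 12 were higher (7.23%) and 15 lower (9.04%), against 7.37% and 5.05% of all genes tested. Both RNAs were called in 5 pairs. In 4 both fell and in 1 they moved in opposite directions. The antisense RNAs of the 4 falling pairs (LOXL1, GATA2, PAN3 and RBPMS) had a group mean at the level threshold only in parental cells. Their place in this count thus rested on the group where they were high. No pair rose on both strands in limma with 6 arrays. At an unadjusted p below 0.05, 3 did (8 fell on both strands, 4 were opposite), and 0 did in the methods' t-test after Benjamini-Hochberg. Without parental array 3 there were 6 pairs with both called in the same direction, among them TENM3 and TENM3-AS1, which rose. Without parental array 1 or 2 there was 1 such pair, and without resistant array 2 or 3 there were 2. The methods' t-test ended the calls of the sense genes LOXL1 (adjusted p = 0.0858), RBPMS (0.195) and ARHGAP5 (0.141).

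Over the 166 pairs 88 had changes of the same sign. Pearson's r between the log2 changes was 0.3 and Spearman's coefficient 0.07, as a description of pairs read on the same 6 arrays. All 120 pairs with both starts in RefSeq lay on opposite strands. Of 69 pairs with starts within 1 kb, 39 had the same sign, 9 sense genes were called and 3 pairs were called on both strands. Of 51 pairs with starts farther apart, 28 had the same sign, 10 sense genes were called and 1 pair was called on both strands.

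**Figure D3:**
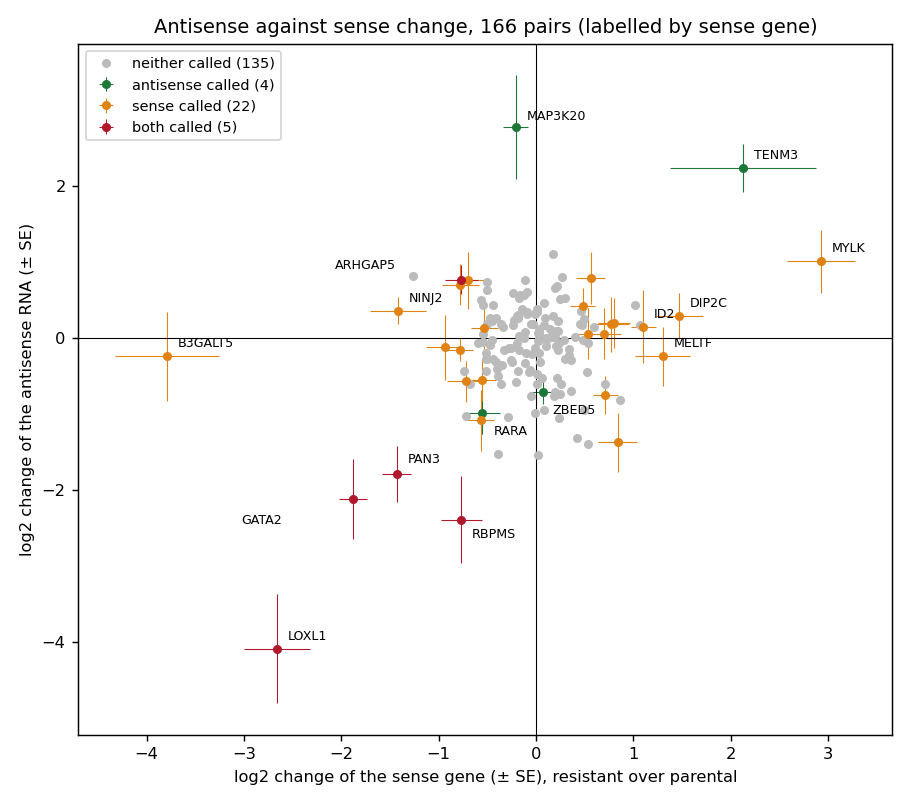
Log2 change of 166 antisense RNAs against that of the sense gene, both resistant over parental, with SE bars on the coloured pairs and labels giving the sense gene. Red marks pairs with both called (5), green pairs with the antisense RNA called alone (4), orange pairs with the sense gene called alone (22) and grey the other 135. Red points lie low on the left, except ARHGAP5, whose antisense RNA is above 0 and sense gene below.

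LOXL1-AS1 and LOXL1, a lysyl oxidase-like enzyme that crosslinks elastin, both fell. LOXL1-AS1 read 3.58, 3.09 and 3.12 on parental and 0.171, 0.0755 and 0.539 on resistant arrays, far below the array median. It fell by 4.09 ± 0.72 on the log2 scale (17.1-fold, adjusted p = 0.00768, and 0.0549 without parental array 1). LOXL1 read 4.91, 4.8 and 10.2 on parental and 1.03, 1.27 and 0.722 on resistant arrays. No arrays of the groups overlapped, and the fall was 2.66 ± 0.34 on the log2 scale (adjusted p = 0.00157). The LOXL1-AS1 fold depended on the faint signals. It was 10.7 without resistant array 2, 28.7 without resistant array 3 and 8.95 once signals under each array's 25th percentile were set to it, so its place among the 344 RNAs by size of change was not settled (TMEM132D-AS1 gave 9.45 under that floor).

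At GATA2, a zinc-finger transcription factor gene known from blood and endothelial cells, both strands fell. GATA2 read 18.9, 19.9 and 19.8 in parental and 5.23, 5.12 and 5.59 in resistant cells, with almost no spread within a group. It fell by 1.88 ± 0.14 on the log2 scale (adjusted p = 7.09e-05). GATA2-AS1 read 3.3, 3.84 and 3.27 against 0.297, 1.46 and 1.16, with resistant array 1 the lowest, and fell by 2.12 ± 0.53 (log2, adjusted p = 0.0336). Without parental array 1 or 2 or resistant array 3 its call ended (adjusted p = 0.0651 to 0.105), and without resistant array 1 its fall was 2.66-fold in place of 4.35-fold. The log2 ratio of GATA2-AS1 to GATA2 shifted by -0.24 ± 0.71 between the groups, with overlapping arrays. For log2 ratios, here and below, ± is a plain SE pooled over the 3 arrays per group, whereas for changes it is limma's SE.

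PAN3, the regulatory subunit of a deadenylase that shortens poly(A) tails, fell with its antisense RNA. PAN3 read 64.8, 82.0 and 60.1 in parental and 25.3, 23.9 and 27.1 in resistant cells, a fall of 1.43 ± 0.15 on the log2 scale (adjusted p = 0.000417). PAN3-AS1 read 1.96, 3.02 and 2.27 against 0.883, 0.528 and 0.696, with the groups apart. It fell by 1.79 ± 0.37 on the log2 scale (adjusted p = 0.0165), and its call was lost when either array 2 was left out (adjusted p = 0.053 to 0.085). The log2 ratio shifted by -0.36 ± 0.22.

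RBPMS, which encodes an RNA-binding protein, and its antisense RNA both fell. RBPMS-AS1 read 2.18, 1.88 and 2.04 on parental and 0.279, 0.245 and 0.852 on resistant arrays, without overlap. It fell by 2.39 ± 0.57 on the log2 scale (adjusted p = 0.0292). RBPMS fell by 0.77 ± 0.21 on the log2 scale, from a mean of 15.6 to 9.15 (adjusted p = 0.0431, in 1 of 3 probe sets). The log2 ratio shifted by -1.62 ± 0.47 and was lower on every resistant array. Both calls ended without parental array 1 or 2 or resistant array 1 or 2 (adjusted p = 0.0808 to 0.114 for RBPMS-AS1 and 0.0618 to 0.171 for RBPMS, which also lost its call without resistant array 3 and, at 0.0795, with replicate number as a block).

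ARHGAP5, a GTPase-activating protein gene, was the pair with opposite directions. ARHGAP5-AS1 read 3.04, 3.16 and 3.87 in parental and 5.17, 5.84 and 6.12 in resistant cells. ARHGAP5 read 33.6, 35.7 and 28.9 in parental and 21.0, 15.3 and 21.8 in resistant cells. The antisense RNA was higher on every resistant array and the sense gene lower, by 0.77 ± 0.19 (adjusted p = 0.0291) and -0.77 ± 0.17 (adjusted p = 0.0217) on the log2 scale, and the log2 ratio shifted by 1.54 ± 0.27. ARHGAP5 was called in 1 of 4 probe sets and not in the mean of all its probe sets, and both calls ended without any one array other than parental 3 (adjusted p = 0.0779 to 0.115 for the antisense RNA and 0.0517 to 0.096 for ARHGAP5).

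In 4 pairs the antisense RNA was called and the sense gene was not. MAP3K20 (ZAK), a stress-activated kinase gene, had a log2 change of -0.21 ± 0.13 (adjusted p = 0.324). MAP3K20-AS1 read 0.559, 0.219 and 0.15 on parental and 1.96, 1.34 and 2.29 on resistant arrays. It rose by 2.78 ± 0.68 on the log2 scale (adjusted p = 0.0303), with all parental arrays below the array median, and the log2 ratio shifted by 3.0 ± 0.57. Its call ended without parental array 2 or any resistant array (adjusted p = 0.0601 to 0.151). TENM3-AS1 read 0.73, 0.711 and 0.549 on parental and 2.78, 3.47 and 3.1 on resistant arrays, and rose by 2.24 ± 0.32 (log2, adjusted p = 0.00253). That call held under every alternative that tested the gene. TENM3, a teneurin of the cell surface, read 0.135, 0.547 and 0.549 on parental and 2.08, 2.15 and 0.757 on resistant arrays. Its log2 change was 2.13 ± 0.75 (adjusted p = 0.102, and 0.0446 without parental array 3), so a rise of the sense gene was not called with 6 arrays. The TENM3 fold was 4.37, and 2.74 without parental array 1. The TENM3 group mean was at the level threshold only in resistant cells (1.66, against 0.41 in parental cells).

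RARA-AS1, opposite the retinoic acid receptor alpha gene, read 13, 15 and 6.96 in parental and 5.41, 5.17 and 6.2 in resistant cells, with parental array 3 near the resistant ones. It fell by 0.99 ± 0.27 on the log2 scale (adjusted p = 0.0435, and 0.103 to 0.15 without any one array other than parental 3). RARA had a log2 change of -0.55 ± 0.18 (adjusted p = 0.0773, and 0.0356 without parental array 3). ZBED5-AS1 read 12.4, 11.6 and 14.8 against 8.14, 7.08 and 8.48 and fell by 0.71 ± 0.16 (log2, adjusted p = 0.0256, and 0.0632 to 0.117 without parental array 1 or any resistant array). ZBED5 read 55.1, 50.1 and 46.7 against 49.3, 50.8 and 59.2, with overlapping groups and a log2 change of 0.07 ± 0.13. The starts of this pair lie 164 bases apart, as shown above, and its log2 ratio shifted by -0.78 ± 0.18.

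**Figure D4:**
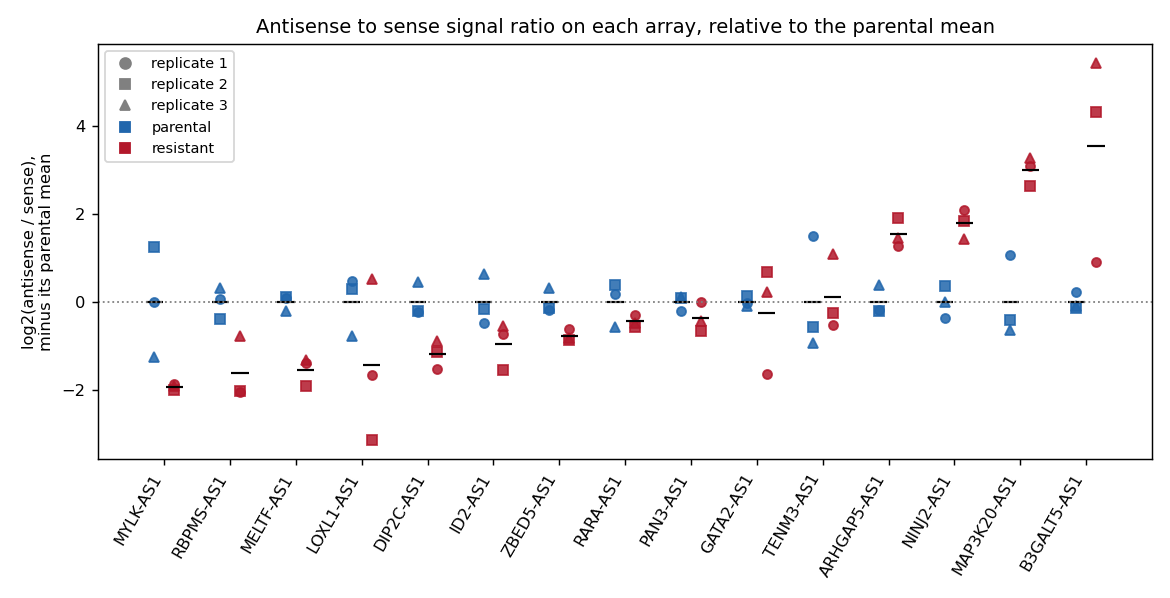
Log2 ratio of antisense to sense signal on each array for 15 pairs with a called antisense RNA or a sense gene called at 2-fold or more, after subtraction of the pair's parental mean. Blue symbols are parental and red symbols resistant arrays, the shape gives the replicate and black bars are means. ARHGAP5-AS1, NINJ2-AS1, MAP3K20-AS1 and B3GALT5-AS1 lie above 0 on all resistant arrays, whereas the arrays overlap for LOXL1-AS1, GATA2-AS1, PAN3-AS1, TENM3-AS1 and RARA-AS1.

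A further 5 called antisense RNAs had no tested sense gene. TMEM132D-AS1 read 12.5, 16.9 and 8.24 on parental and 1.08, 1.23 and 1.56 on resistant arrays. It fell by 3.24 ± 0.27 on the log2 scale (9.45-fold, adjusted p = 0.000129), and a second probe set fell by 2.95. TMEM132D, a membrane protein gene, was below the threshold, with means of 0.559 and 0.561. HOXB-AS3, named after the HOXB gene cluster, read 9.56, 9.57 and 10.3 against 4.33, 5.4 and 4.87. The fall was 1.02 ± 0.16 on the log2 scale (adjusted p = 0.00482) in 1 of 5 probe sets, and the mean of all 5 was not called.

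The other 3 rose by less than 2-fold. PRKCQ-AS1 rose by 0.84 ± 0.23 on the log2 scale, from a mean of 2.11 to 3.75 (adjusted p = 0.0473), in 1 of 2 probe sets, and PRKCQ, a protein kinase C gene, lay below the threshold over the 6 arrays, with group means of 1.17 and 0.78. DLGAP1-AS1 rose by 0.74 ± 0.18, from 4.17 to 6.97 (adjusted p = 0.0308), and LIPT2-AS1 by 0.64 ± 0.18, from 7.61 to 11.8 (adjusted p = 0.0496). These calls ended without any one array other than parental 3 for PRKCQ-AS1 (adjusted p = 0.0508 to 0.174) and DLGAP1-AS1 (0.0738 to 0.125), and without parental array 1 or any resistant array for LIPT2-AS1 (0.103 to 0.183). With replicate number as a block, RARA-AS1, PRKCQ-AS1, DLGAP1-AS1 and LIPT2-AS1 were no longer called (adjusted p = 0.0545 to 0.0944).

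In 22 pairs the sense gene was called and the antisense RNA was not. In 6 of them the sense gene changed at least 2-fold. B3GALT5, a galactosyltransferase of glycan synthesis, read 4.29, 7.62 and 4.31 in parental and 0.838, 0.33 and 0.191 in resistant cells and fell by 3.79 ± 0.53 on the log2 scale (adjusted p = 0.00235). B3GALT5 had a group mean at the level threshold only in parental cells (5.41, against 0.453 in resistant cells). Its place among the tested genes thus rested on the group where it was high. The gene has 2 listed starts, and which of them gave its signal was not tested. B3GALT5-AS1, whose start lies 118 bases from the nearer one, read 1.36, 1.88 and 1.1 against 0.423, 1.78 and 2.23. Its log2 change was -0.24 ± 0.59 (adjusted p = 0.826), with overlapping groups, and 0.50 without resistant array 1, so that 1 array set its sign. The log2 ratio shifted by 3.55 ± 1.37, least on resistant array 1. NINJ2, an adhesion protein gene, fell by 1.42 ± 0.29 (log2, adjusted p = 0.015, and 0.0608 to 0.0736 without resistant array 1 or 2), beside a log2 change of 0.36 ± 0.18 for NINJ2-AS1. The methods' t-test ended the calls of B3GALT5 (adjusted p = 0.0976) and NINJ2 (0.152).

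The other 4 sense genes rose. MYLK, the myosin light chain kinase gene, read 2.45, 1.77 and 5.78 in parental and 22.5, 21.3 and 23.3 in resistant cells, a rise of 2.93 ± 0.35 on the log2 scale (adjusted p = 0.00114). MYLK-AS1 read 0.64, 1.1 and 0.637 against 1.61, 1.4 and 1.62. Every resistant array was higher, but the log2 change of 1.01 ± 0.41 was not called (adjusted p = 0.147). DIP2C rose by 1.47 ± 0.24 (log2), beside 0.29 ± 0.3 for DIP2C-AS1. MELTF, encoding the iron-binding melanotransferrin, rose by 1.3 ± 0.28, beside -0.24 ± 0.39 for MELTF-AS1. It was called in 1 of 3 probe sets, and lost its call in the mean of them (adjusted p = 0.301) and without any one resistant array (0.0577 to 0.0909). ID2, an inhibitor of helix-loop-helix transcription factors, rose by 1.1 ± 0.13, beside 0.15 ± 0.48 for ID2-AS1. The methods' t-test ended the calls of MYLK (adjusted p = 0.0932), DIP2C (0.0974) and MELTF (0.175). A miss of the threshold does not show that these 6 antisense RNAs were unchanged, and their SEs of 0.18 to 0.59 on the log2 scale set what could be seen.

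Folds of RNAs below the array median in one group were sensitive to faint signals. With 0.5 array medians added to every signal, the fold was 5.1 in place of 17.1 for LOXL1-AS1, 2.94 in place of 6.89 for MAP3K20-AS1 and 3.28 in place of 6.21 for LINC00348. It was 2.75 in place of 5.24 for RBPMS-AS1, 2.88 in place of 4.35 for GATA2-AS1, 3.11 in place of 4.72 for TENM3-AS1, 3.01 in place of 4.56 for LINC00960, 6.25 in place of 13.9 for B3GALT5 and 2.31 in place of 4.37 for TENM3.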

How the data were processed

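RNA of 6 samples was hybridised to Affymetrix HG U133 Plus 2.0 arrays. The authors deposited an intensity on a linear scale for each probe set. The submitters' processing notes name MAS5 with no version or scaling target stated in the sources used here. The table holds no detection calls, so a signal below the array median may be background. Arrays limit precision by their number, 3 per group.

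Each intensity was divided by its array's median, 10 exact zeros were set to 0.05 signal units, and log2 values were fitted with limma 3.58.1 in R 4.3.3 (lmFit, eBayes with an intensity trend, two-sided). Of 54613 probe sets that were not controls, 26563 with a mean of at least 1 array median were tested, and p-values were adjusted by Benjamini-Hochberg over all of them. A call is an adjusted p below 0.05. An exact permutation test of 3 against 3 cannot go below 0.1. Probe sets were named from the platform annotation: 41091 carried 1 symbol, 1801 several and 11721 were unlisted. Of the first, 41037 matched RefSeq and 0 symbols changed. Probe sequences were not used, so the strand a probe set reads rests on its annotation. The fit was tested on simulated data. Sequences, starts and gene order came from RefSeq (GRCh38.p14), read with Python 3.11.15.

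Genes were named by rule: called RNAs (at most 15 per direction and class), their sense genes, sense genes called at 2-fold or more beside an uncalled antisense RNA (at most 10), the nearest tested protein-coding genes of called lincRNAs, the 2 genes on each side of the level threshold, and at most 4 called genes of each other list (the 2 largest changes where fewer than 2 were called). SMIM2-AS1 and TPT1-AS1 fall outside it and were chosen after their values were seen. The members, lists and tests were chosen with earlier results of these data known. Alternatives covered scaling, the filter and floor on low signals, an offset, the test, the replicate block, each array left out and the choice of probe set.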

Additional observations from a re-analysis of the deposited data

How the results depend on the processing

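With 6 arrays, 9 RNAs were higher, 14 lower and 4 antisense and sense pairs called in the same direction. RNAs higher in resistant cells numbered 4 without further scaling and 5 without a filter on low values. Of the 101 with a mean of at least 3 array medians, 4 were higher. Higher RNAs numbered 4 without the intensity trend and 2 in the plain t-test. Lower RNAs numbered 8 at the stricter filter and 3 in the t-test. Pairs numbered 2 without the filter, 0 at the stricter filter (67 of 222 antisense RNAs left), 2 without the trend and 0 in the t-test. Leaving out each array in turn gave 1 to 13 higher, 6 to 33 lower and 1 to 6 pairs, the highest of each without parental array 3. With the replicate block the counts were 6 higher, 14 lower and 3 pairs. Whether same-numbered arrays were prepared together is not stated. Deviations from the group means correlated at -0.0218 to -0.0165 for same-numbered arrays and at 0.00318 to 0.0137 for the others. These values cannot decide it, because the deviations cancel out within each group. Apart from the fits that leave out an array, the remaining alternatives stayed within 1.5 times the counts given first.

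Of the 23 called RNAs, 2 (LINC00460 and TENM3-AS1) kept their call under every alternative that tested them. Over 58 gene results and 951 alternative values, 179 changed side of the threshold. The sign turned in 6, all of uncalled genes. ZBED5 gave -0.02 without further scaling, -0.06 in the mean of its probe sets and -0.01 (without resistant array 3) to 0.13 over the arrays left out. Over these B3GALT5-AS1 gave -0.70 to 0.50 (the highest without resistant array 1) and ID2-AS1 -0.14 to 0.46 (-0.14 without parental array 1, -0.07 without resistant array 3). The plain t-test ended the calls of 36 of the 44 named genes called. The causes were not tested. Updating symbols through RefSeq changed none, so that alternative was not run. No detection calls were at hand, and a median level of 1.83 array medians limits the precision for most of these RNAs.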

Other observations

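Other noncoding transcripts were read from lists outside the antisense and LINC names, whose counts stand against 7.37% higher and 5.05% lower of all genes tested. Of 18 tested long noncoding RNAs with names of their own, 3 were lower and 0 higher in resistant cells in limma. At an unadjusted p below 0.05, 1 was higher and 5 lower, and the plain t-test called 0. The median log2 change of the 18 was -0.24. UCA1, known from urothelial cancer, read 65.6, 52.1 and 48.2 array medians on parental and 16.1, 19.3 and 23.3 on resistant arrays. It fell by 1.5 ± 0.18 on the log2 scale (adjusted p = 0.000968). DLEU2, a chromosome 13 transcript whose probe set has probes in common with other genes, fell by 1.07 ± 0.19 (adjusted p = 0.00752), in 1 of 3 probe sets, with another at 0.66. NBR2 fell by 1.25 ± 0.35 (adjusted p = 0.049, and 0.118 to 0.166 without any one array other than parental 3), in 1 of 2 probe sets, with the other at -0.07. Its call was also lost with the replicate block (adjusted p = 0.0517).

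Of 7 microRNA host genes 1 was lower and 0 higher (3 lower and 0 higher at an unadjusted p below 0.05, 0 in the t-test). MIR31HG, the host of miR-31, read 11.0, 8.66 and 8.25 on parental and 1.14, 2.16 and 1.47 on resistant arrays. Its groups lay far apart, with a fall of 2.58 ± 0.26 on the log2 scale (6.0-fold, adjusted p = 0.00034). MIR570HG had a log2 change of -0.75 ± 0.3 (adjusted p = 0.144). Of 71 divergent, intronic and overlapping transcripts, 1 was higher and 0 lower (7 higher and 4 lower unadjusted, 0 in the t-test). RNASEH1-DT rose by 0.69 ± 0.16 on the log2 scale (adjusted p = 0.025, and 0.0625 to 0.117 without any one array other than parental 3, and 0.0573 with the replicate block), and EOLA2-DT had a log2 change of 2.03 ± 0.77 (adjusted p = 0.12). Of 7 snoRNA host genes 0 were called in limma or the t-test and 0 had an unadjusted p below 0.05. SNHG32 and SNHG17 had log2 changes of -0.66 ± 0.33 and -0.49 ± 0.29.

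Genes of RNA decay, small RNA pathways and RNA editing gave 1 lower and 0 higher of 19 (3 higher and 5 lower unadjusted, 0 in the t-test). EXOSC8, an exosome subunit, fell by 0.54 ± 0.11 on the log2 scale (adjusted p = 0.0166, and 0.0628 to 0.0962 without parental array 1 or any resistant array). ADARB1, an adenosine deaminase that edits RNA, had a log2 change of -0.59 ± 0.29 (adjusted p = 0.222).

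Leaving out parental array 3 added 4 higher and 19 lower RNAs to those called with 6 arrays. The largest additions were LINC01133, with a log2 change of -2.74 (adjusted p = 4.84e-05) against -1.86 (0.0826) with 6 arrays, and LINC01210, with -2.07 (0.00903) against -1.69 (0.0526). These were chosen after their values were seen.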
